A study of Mus musculus with 2 samples.

Results

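The miR-23/27/24 clusters are a pair of related microRNA loci of the mouse, and their 6 counted genes were examined in embryonic heart: Mir23a, Mir27a and Mir24-2 on chromosome 8, and Mir23b, Mir27b and Mir3074-1 on chromosome 13. They were chosen by gene ID, as 6 of the 1973 miRNA genes in the count tables, and not by their values. Small RNAs under 30 nt were sequenced from hearts of B6NCrl embryos aged 11.5 days, healthy, untreated as far as the labels say and with males and females pooled. The labels give 2 biological replicates of 1 group, replicate 1 being a pool from 109 embryos and replicate 2 a pool of embryos whose number the labels leave out. With 1 group there was no contrast between conditions. The measurements are the level of each gene, the ratios between genes within a library, and the agreement of the libraries. Mir24-1, which completes the chromosome 13 cluster, had no row of its own. Its reads were taken from the strand opposite Mir3074-1, the gene that overlaps it.

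A microRNA is cut from a hairpin precursor and guides silencing of messenger RNAs through its seed, the bases 2 to 8 of the mature strand. The 3 hairpins of each cluster lie in a row and are known to come from a common primary transcript, so that miR-23, miR-27 and miR-24 are made together. These miRNAs are best known in blood vessels: they are enriched in endothelial cells, miR-23 and miR-27 are reported to favour vessel sprouting by repressing Sprouty2 and Sema6A, and miR-24 is reported to restrain endothelial cells through GATA2 and PAK4. miR-3074 is the product of the strand opposite the miR-24 hairpin and has been studied much less.

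Mature strands are shown for the genes whose reads can be confused, because they decide which gene a read can be counted for. The main strand of Mir23b is miR-23b-3p. Sequences are RefSeq's on GRCm38.p6, with the seed in capitals. All 8 genes of the clusters, counting the opposite-strand genes Mir24-1 and Mir3074-2, had a hairpin in that table. Those of the Mir23a cluster lie on the plus strand of chromosome 8, miR-23a-3p at chr8:84208563-84208583, miR-27a-3p at chr8:84208727-84208747 and miR-24-2-5p at chr8:84208839-84208860. On the plus strand of chromosome 13 lie miR-27b-3p at chr13:63300760-63300780 and miR-24-1-5p at chr13:63301213-63301235. miR-24-3p is given at both clusters, at chr8:84208875-84208896 and chr13:63301251-63301272. miR-3074-5p is given on the minus strand of both, at chr8:84208873-84208894 and chr13:63301249-63301270.
miR-23a-3p: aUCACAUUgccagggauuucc
miR-27a-3p: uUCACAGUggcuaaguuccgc
miR-27b-3p: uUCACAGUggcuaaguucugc
miR-24-3p: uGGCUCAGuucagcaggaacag
miR-24-2-5p: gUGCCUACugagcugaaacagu
miR-24-1-5p: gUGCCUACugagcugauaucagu
miR-3074-5p: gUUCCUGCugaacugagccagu

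miR-27a-3p and miR-27b-3p share their seed and 20 of 21 bases. The difference is C19U, counted from 1 at the 5′ end with the miR-27a-3p base first, so a read of either that ends before base 19 fits both hairpins. The first 18 bases of miR-23a-3p also occur in the Mir23b hairpin, and its first 19 occur in no other hairpin of the table. miR-24-3p occurs whole in both the Mir24-1 and the Mir24-2 hairpin, and no length of it from the 5′ end tells them apart. Their 5p strands share the first 16 bases and part after that. miR-3074-5p likewise occurs whole in Mir3074-1 and Mir3074-2. The seed of miR-24-3p recurs in 4 other mature names among the 1679 of the table, whereas the seed UCACAGU was found in miR-27a-3p and miR-27b-3p only.

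**Figure D1:**
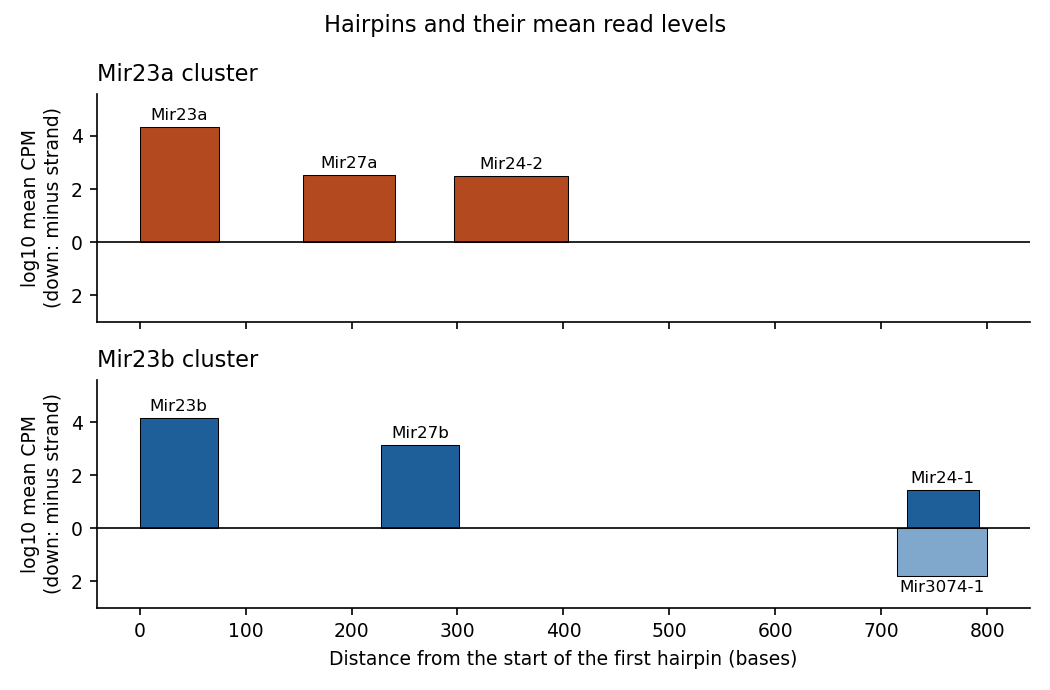
Hairpins of the Mir23a cluster and the Mir23b cluster drawn by distance in bases from the start of the first hairpin; bar height is the log10 of the mean CPM over the 2 libraries, upward for the plus strand and downward for the minus strand. In these counts, which leave out reads mapping to several places, the first hairpin is the highest in both clusters (21645 CPM for Mir23a and 14437 CPM for Mir23b), and the Mir3074-1 site has reads on both strands.

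The Mir23a cluster is compact. On GRCm38, Mir23a (ENSMUSG00000065611.1) lies on chromosome 8 from 84208518 to 84208592, Mir27a (ENSMUSG00000065444.1) from 84208672 to 84208758 and Mir24-2 (ENSMUSG00000065541.1) from 84208815 to 84208921. The 3 hairpins span 404 bases and overlap no annotated protein-coding gene. Only the last 2 bases of Mir24-2 overlap an exon of a lincRNA on the same strand, Gm26532. The Mir23b cluster is looser and lies inside the aminopeptidase gene 2010111I01Rik (Aopep in RefSeq) on its strand. Mir23b (ENSMUSG00000065599.1 in the files) lies in an intron on chromosome 13 from 63300484 to 63300557. Mir27b (ENSMUSG00000065475.1), from 63300712 to 63300784, overlaps an exon annotated as UTR of a transcript of that gene. Mir3074-1 (ENSMUSG00000092741.1) lies on the minus strand from 63301199 to 63301283, within an intron of Fancc, a DNA repair gene, and opposite Mir24-1 at 63301208 to 63301275. The plus-strand hairpins of this cluster span 792 bases. These coordinates are those of GENCODE M21. The ID versions of Mir23b, Mir27b and Mir3074-1 differ there from the deposited ones, so the counted boundaries may differ slightly.

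Replicate 1 held 18467499 own-strand reads on miRNA genes and replicate 2 held 2017294, so a count of 0 allowed up to 0.162 and 1.49 counts per 1000000 such reads (CPM). Reads mapping to several places, 33.8% and 33.2% of mapped reads, stood on no gene. The heart label fits its markers in part: the myosin-encoded Mir208b and Mir208a stood at 48339 and 10631 CPM, while Mir1a-1, Mir133a-1 and Mir133a-2, muscle miRNAs encoded at several loci, averaged 2.23, 3.54 and 0.623 CPM. Mir499, also on the heart muscle list, stood at 1795 CPM. Endothelial Mir126a stood at 82102 CPM. Of the smooth muscle list, Mir143 stood at 94938 CPM and Mir145a at 1238 CPM. The blood cell list, with 4 of 6 genes counted, summed to 0.126% and 0.122% of reads in replicates 1 and 2, and the 7 epithelial genes to 0.214% and 0.149%. The blood sum lacks Mir486, an erythroid miRNA that these tables hold at 89.5 and 52.5 CPM and that the list gave under another symbol. It also lacks Mir142, which is on the list and had no row. The liver miRNA Mir122 stood at 395 and 160 CPM. Of the neural list, the Mir9 and Mir124a genes, none reached 1 CPM in both libraries. Each of these miRNAs is encoded at several loci, so the list says little about neural cells. In bulk tissue, fewer cells of a type and less RNA per cell cannot be told apart. Which heart cells gave the reads of the clusters was not tested.

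All 6 genes reached the detection limit of 1 CPM in each library, which 419 genes of the table passed. Together they took 3.75% of own-strand reads in replicate 1 (exact 95% Clopper-Pearson interval 3.74 to 3.76%) and 3.89% in replicate 2 (3.87 to 3.92%), a mean of 3.82% ± 0.10 (SD, n = 2). The Mir23a cluster held 2.19% and 2.27%, and the Mir23b cluster 1.56% and 1.62%. The Mir23b cluster was summed here and in its ratio with the minus-strand Mir3074-1 in place of Mir24-1, so the sets are not alike. Within the Mir23a cluster, the reads of Mir23a itself made up 97.2% and 97.0%. Within the Mir23b cluster, those of Mir23b made up 90.9% and 90.5%. Both clusters were therefore counted almost wholly through their miR-23 gene: Mir23a and Mir23b together made up 94.4% ± 0.20 of the reads on the 6 genes, the Mir27 genes 4.59% ± 0.21, Mir24-2 0.818% ± 0.0045 and Mir3074-1 0.170% ± 0.012. The sources used here name no molecular identifiers, so reads may be copies of 1 molecule, and the intervals and floors hold the counting error alone.

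**Figure D2:**
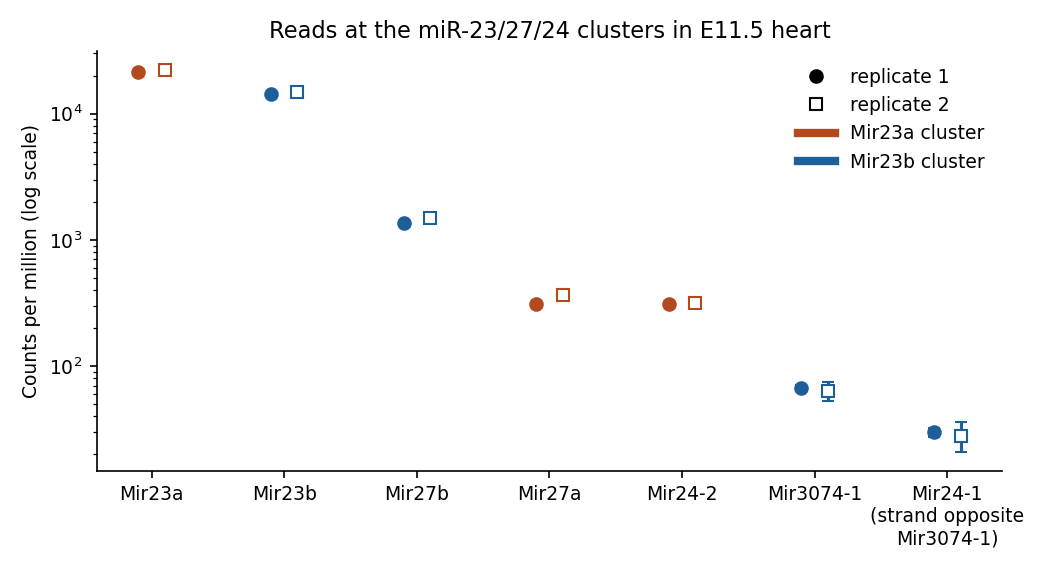
CPM (log axis) of each gene in replicate 1 (filled circles) and replicate 2 (open squares), with exact 95% intervals of the counting error, coloured by cluster. Levels run from 21645 CPM for Mir23a to 28.8 CPM for the strand of Mir24-1, and the 2 libraries lie close at each gene.

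In these counts, which leave out reads mapping to several places, the miR-23 genes stood among the highest. Mir23a had 392992 reads in replicate 1 and 44402 in replicate 2, or 21280 and 22011 CPM, a mean of 21645 ± 517 CPM (SD, n = 2) and rank 12 of the 419 detected genes. Mir23b had 261918 and 29636 reads, or 14183 and 14691 CPM, a mean of 14437 ± 359 CPM and rank 16. The libraries of Mir23a lay wholly above those of Mir23b. Their places among other genes were less firm. Mir21a, directly above Mir23a, had 21335 and 22210 CPM, and Mir17, directly below, had 22123 and 20501 CPM, so Mir17 stood above Mir23a in replicate 1 and below it in replicate 2. Around Mir23b, Mir652 above had 15795 and 15464 CPM and stood higher in both libraries, whereas Mirlet7i below had 14833 and 12533 CPM and changed sides.

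The miR-27 genes were lower, and here the chromosome 13 copy led. Mir27b had 25040 reads in replicate 1 and 2981 in replicate 2, or 1356 and 1478 CPM, with a mean of 1417 ± 86 CPM and rank 76. Mir27a had 5687 and 740 reads, or 308 and 367 CPM, with a mean of 337 ± 42 CPM and rank 123. The median of the 419 detected genes was 80.5 CPM, so both lay above the middle of the table. Mir27a had the widest relative spread of the 6 genes between the libraries, 12.3% of its mean, against 2.1 to 6.1% for the others.

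The miR-24 hairpins held few reads. Mir24-2 had 5689 reads in replicate 1 and 640 in replicate 2, or 308 and 317 CPM, a mean of 313 ± 6.5 CPM at rank 128. The strand of Mir24-1, opposite Mir3074-1, had 551 and 56 reads, or 29.8 and 27.8 CPM, a mean of 28.8 ± 1.5 CPM. These counts do not measure miR-24-3p, the main product of both hairpins, because its sequence is the same at both and a read found at both places would stand in the multimapping row. How much of that row was miR-24-3p was not tested. By the same sharing, 9 of the 88 runs of 20 bases in the Mir24-2 hairpin recur in Mir24-1, against 1 run shared in each of Mir23a, Mir23b, Mir27a and Mir27b.

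Mir3074-1 was read from both strands, with its own strand ahead in the counted reads. Its own strand had 1235 reads in replicate 1 and 127 in replicate 2, or 66.9 and 63.0 CPM, a mean of 64.9 ± 2.8 CPM at rank 221. Own-strand reads made up 69.1% of all reads at the site in replicate 1 (Clopper-Pearson 66.9 to 71.3%) and 69.4% in replicate 2 (62.2 to 76.0%). At no other gene of the table did both strands reach 10 CPM in both libraries, a comparison chosen after the values were seen. At the matching site of the other cluster, the strand opposite Mir24-2, where the annotation places Mir3074-2, held 2 reads in replicate 1 and 0 in replicate 2, at or below the limit of 3 reads that a count of 0 allows. The opposite strands of Mir23a, Mir27a and Mir23b held 0 reads in both libraries. Since miR-3074-5p is shared by Mir3074-1 and Mir3074-2, its reads, too, may stand in the multimapping row. The same holds for miR-24-3p on the opposite strand, so the strand shares describe the counted reads only.

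Ratios between genes were then taken within each library, where the library total drops out. To count as larger than the replicate error, a ratio had to lie on 1 side of equality in each library, outside it by the exact binomial 95% interval, with a mean log2 value beyond its SD. All 8 ratios between the clusters, the paralogs and the genes of 1 cluster met this. The ratios share genes, so they are not 8 separate results. They compare counts, and differences in how well each miRNA is captured and mapped may be alike in both libraries and would then show in neither error. The Mir23a cluster exceeded the Mir23b cluster 1.40-fold, with log2 ratios of 0.49 in replicate 1 (0.48 to 0.50) and 0.48 in replicate 2 (0.46 to 0.50), a mean of 0.49 ± 0.0036 (SD, n = 2).

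The paralogs went opposite ways. Mir23a exceeded Mir23b, with log2 ratios of 0.59 in replicate 1 (0.58 to 0.59) and 0.58 in replicate 2 (0.56 to 0.60), a mean of 0.58 ± 0.0015. Mir27a was below Mir27b, with log2 ratios of -2.14 in replicate 1 (-2.18 to -2.10) and -2.01 in replicate 2 (-2.13 to -1.89), a mean of -2.07 ± 0.09, or 4.21-fold lower. Mir23a thus took 60.0% of the reads on both Mir23 genes in each replicate, while Mir27a took 18.5% and 19.9% of the reads on both Mir27 genes. The intervals of these shares did not overlap between the gene pairs in either library.

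Within a cluster, the step from miR-23 to miR-27 was larger on chromosome 8 in both libraries, with intervals that did not overlap. This follows by arithmetic from the paralog ratios of the same genes and is no separate result. Mir23a exceeded Mir27a 64.4-fold, with log2 ratios of 6.11 in replicate 1 (6.07 to 6.15) and 5.91 in replicate 2 (5.80 to 6.01). Mir23b exceeded Mir27b 10.2-fold, with log2 ratios of 3.39 (3.37 to 3.41) and 3.31 (3.26 to 3.37). Mir24-2 was 69.2-fold below Mir23a (mean log2 ratio -6.11 ± 0.0044). The strand of Mir24-1 was 502-fold below Mir23b (-8.97 ± 0.11) and Mir24-2 10.9-fold above the strand of Mir24-1 (3.44 ± 0.10). All these ratios rest on reads that mapped to 1 place. Short reads of miR-23 and miR-27 that fit both paralogs may be missing from them. The last 3 ratios involve miR-24 hairpins and do not measure the shared miR-24-3p.

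**Figure D3:**
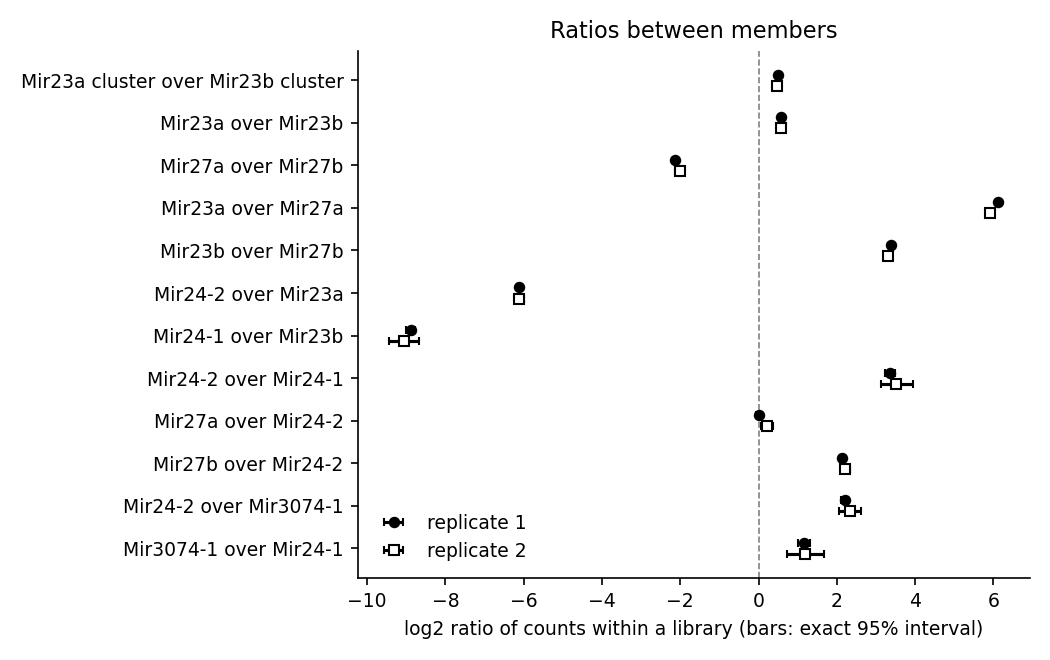
Log2 ratio of counts within replicate 1 (filled circles) and replicate 2 (open squares) for 12 pairs, with exact 95% binomial intervals; the dashed line marks equality. Mir27a over Mir24-2 touches equality in replicate 1 and the other 11 ratios stay on 1 side of it in both libraries.

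In the order of levels, from Mir23a through Mir23b, Mir27b, Mir27a, Mir24-2 and Mir3074-1 to the strand of Mir24-1, 4 further pairs were compared, chosen after the levels were seen: 3 of direct neighbours, and Mir27b with Mir24-2. Mir27a and Mir24-2 did not differ beyond their spread: the log2 ratio was -0.000507 in replicate 1, at 5687 and 5689 reads, and 0.21 in replicate 2 (0.05 to 0.36), a mean of 0.10 ± 0.15. The other 3 were larger than the spread. Mir27b exceeded Mir24-2 4.53-fold (2.18 ± 0.06), Mir24-2 exceeded Mir3074-1 4.82-fold (2.27 ± 0.09), and Mir3074-1 exceeded the strand of Mir24-1 2.25-fold (1.17 ± 0.01). All 4 pairs include a miR-24 or miR-3074 hairpin and rest on reads that mapped to 1 place. They do not compare the whole of miR-24-3p or miR-3074-5p.

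Uneven counts between neighbouring genes were common in the table. Over the whole table, 117 other pairs of detected miRNA genes were neighbours on the same strand within 10 kb, and their mean levels differed by a median of 2.86 on the log2 scale (quartiles 1.67 and 5.03). Many of these pairs lie in a row on chromosome 12, and adjacent pairs share a gene. The pairs are thus not independent, and the median and quartiles do not count loci. Between Mir23a and Mir27a the difference was larger than the upper quartile, and 25 of the 117 pairs differed by at least as much. Mir23b and Mir27b differed by 3.35, as much as or less than 53 pairs, and Mir27a and Mir24-2 by 0.11, less than 115 pairs. The upstream gene was the higher in 60 of the 117. Without genes whose symbols end in a hyphen and a digit, which often mark sequences present at several loci, the median was 2.59 over 92 pairs, of which 14 reached the difference of Mir23a and Mir27a. The chromosome 12 pairs all remained among them.

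**Figure D4:**
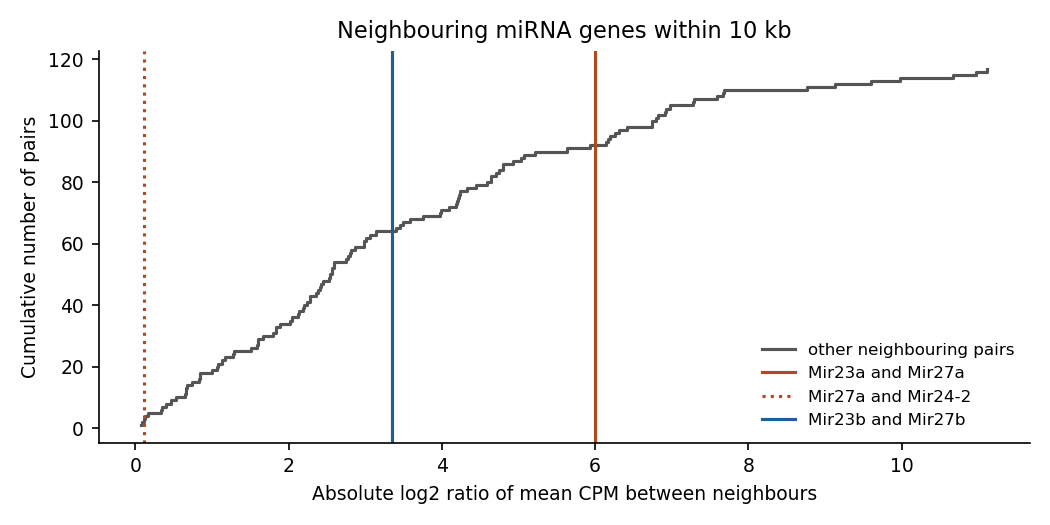
Cumulative number of the 117 other neighbouring pairs of detected miRNA genes (grey) by absolute log2 ratio of their mean CPM, with vertical lines for Mir23a and Mir27a, Mir23b and Mir27b (3.35) and Mir27a and Mir24-2 (0.11, dotted). The Mir23a and Mir27a pair lies in the upper part of the curve, with 25 pairs at or beyond it.

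The 6 genes differed between the libraries by small folds. None of the 6 differed by 1.5-fold or more between replicate 2 and replicate 1, where 13.8% of the 419 detected genes did (58 genes), and 5.35% of those at 10 CPM or more (16 of 299). With 6 genes, a count of 0 is close to these shares and sets them apart from no other genes. For Mir23a, Mir23b, Mir27a and Mir27b the counting intervals of the ratio excluded equality. The comparison sets 1 library against 1 and describes these libraries only. Mir27a was the furthest apart, with 367 CPM in replicate 2 against 308 CPM in replicate 1 and a ratio of 1.19 (exact 95% interval 1.10 to 1.29), and Mir27b stood at 1.09 (1.05 to 1.13). Of 34 detected genes between 250 and 500 CPM, 7 moved at least as far as Mir27a, itself included. Mir23a and Mir23b had nearly the same ratio, 1.03 (1.02 to 1.04) and 1.04 (1.02 to 1.05). The intervals of Mir24-2 (0.95 to 1.12), Mir3074-1 (0.78 to 1.13) and the strand of Mir24-1 (0.69 to 1.23) took in equality, and depth limits them: 127 and 56 reads in replicate 2 for the last 2. The median fold either way was 1.05 over the 6 genes and 1.11 over all detected genes. Marker lists differed between the libraries too: heart muscle genes summed to 6.31% in replicate 2 against 5.84% in replicate 1, Mir126a took 8.47% against 7.95%, and the epithelial genes 0.149% against 0.214%. In the same order, smooth muscle genes summed to 9.86% against 9.37%, liver Mir122 took 0.0160% against 0.0395%, and blood cell genes 0.122% against 0.126%. Within the heart muscle list, Mir1a-1 and Mir133a-2, at few reads, were lower in replicate 2. The part of the marker lists in the ratios of the 6 genes was not tested.

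**Figure D5:**
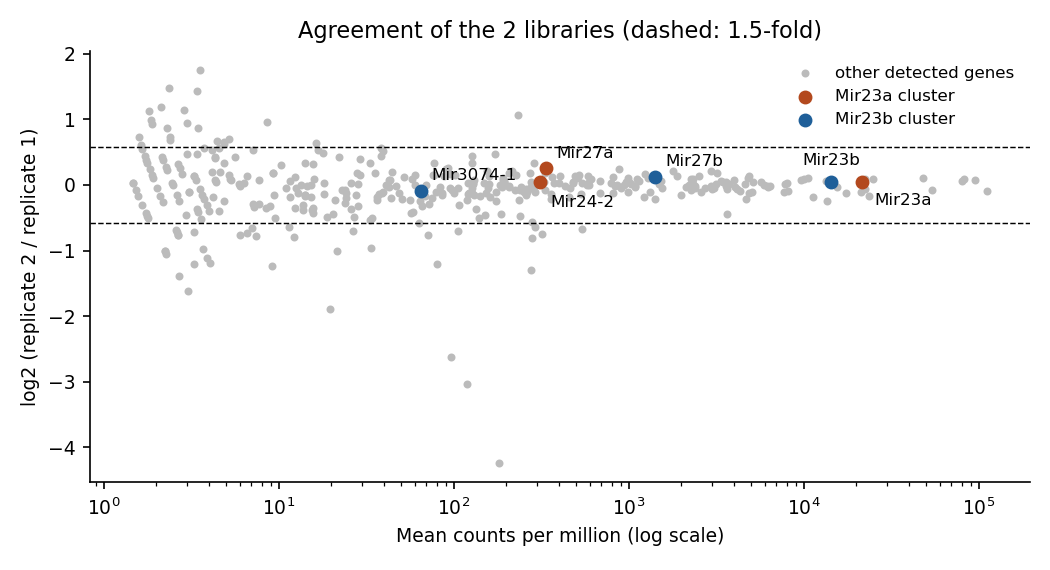
Log2 ratio of CPM in replicate 2 over replicate 1 against mean CPM (log axis) for the 419 detected genes (grey) and the 6 genes of the clusters (coloured), with dashed lines at 1.5-fold. All 6 lie between the lines, and Mir27a, at a ratio of 1.19, is the furthest from equality.

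Other miRNAs known from endothelium and vessel growth were read beside them. Of 20 listed, 18 had a row and all 18 were detected, together at 15.6% of own-strand reads in replicate 1 and 15.9% in replicate 2, and 0 of the 18 differed by 1.5-fold between the libraries, beside 13.8% of all detected genes and 5.35% (16 of 299) of those at 10 CPM or more. Their median level was 2047 CPM, against 877 CPM for the 6 genes of the clusters. Of the 18 with a row, only Mir126a and Mir130a stood above Mir23a. Mir126a, the endothelial miRNA that guards vessel integrity, stood at 82102 ± 3673 CPM. The mean of Mir130a, which represses anti-angiogenic homeobox genes, was 22305 ± 1045 CPM. Mir130a had 21566 and 23045 CPM in replicates 1 and 2, each above Mir23a in the same library. Mir17 of the miR-17-92 cluster lay between Mir23a and Mir23b, and 15 lay below Mir23b. Reads mapping to several places are missing from all these counts. The order is that of counted reads, and genes encoded at several loci may stand too low.

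Among those below, the miR-17-92 genes Mir20a, Mir18 and Mir92-1 stood at 8093, 4840 and 2974 CPM, and Mir19a at 39.6 CPM. Mir296, reported to raise growth factor receptors in vessels, stood at 5102 ± 283 CPM, Mir100 at 4681 ± 475 CPM and Mir10a at 3675 ± 780 CPM. Mir27b, at 1417 CPM, lay just above the hypoxia-induced Mir210, at 1120 ± 51 CPM, and Mir10b, at 790 ± 13 CPM. Mir155 stood at 129 CPM and Mir132, linked to endothelial activation, at 79.1 CPM. The vascular pair Mir221 and Mir222, which restrain the Kit receptor, stood at 28.4 ± 4.4 and 14.2 ± 1.2 CPM, and Mir218-1 and Mir218-2 at 15.6 and 52.3 CPM. Mir126b and Mir378a had no row and were not analysed here.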

How the data were processed

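For each of the 2 libraries the authors supplied a table of raw counts by miRNA gene, made on build mm10 with annotation M4 per the notes deposited with it. The sources used here name no aligner or counter (not given). In every table there are 3 unnamed count columns and 4 summary rows. From their layout and sums (the last 2 add up to the first for every gene), they were taken as reads on both strands, the gene's own strand and the opposite strand. No source states this.

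Summary rows, with unmapped (38.4% and 27.5% of reads), multimapping (20.8% and 24.1%) and off-gene reads (8.77% and 7.04%) in replicates 1 and 2, were left out of totals. CPM were computed here as own-strand counts per 1000000 own-strand counts. The Mir24-1 strand used the same totals. Gene IDs were matched to GENCODE M21 on GRCm38 (1894 of 1973).

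With 2 libraries the smallest two-sided sign-flip p is 0.5, so no p was given. The labels name separate tissue samples under 1 donor entry, so the SD may be partly technical. Intervals are exact Clopper-Pearson (scipy 1.17.1). Those of ratios between the libraries were tested on simulated counts of the more abundant genes. The simulated counts held counting error alone, so the test does not bear on copied reads. Alternatives were both-strand counts, other denominators, detection limits, folds and pseudocounts, edgeR 4.0.16 TMM and DESeq2 1.42.0 size factors, and leaving out each replicate.

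The genes, lists and ratios were chosen with earlier results of these data known. Named were the 6 genes, their opposite-strand partners and hosts, the rank neighbours of Mir23a and Mir23b, the angiogenic list and tissue markers. With 2 libraries no gene could be named for a like pattern.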

Additional observations from a re-analysis of the deposited data

Results flagged for a closer look

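The strand opposite Mir27b held 4 reads in replicate 1, above the limit of 3 reads that a count of 0 allows, and 0 in replicate 2. That strand entered no comparison.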

How the results depend on the processing

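The 8 ratios kept their direction, with intervals that excluded equality, with reads of both strands (where the ratio allows it) and in each library alone, and the cluster ratio also with the Mir24-1 strand added (log2 0.48) and with the Mir23 and Mir27 genes alone (0.47). The 2 ratios that use the Mir24-1 strand have no both-strand form. The share of the 6 genes moved to 3.65% with reads of both strands and to 1.40% when all reads, unmapped and multimapping included, were the denominator. The added ratio of Mir27a over Mir24-2 ran from -0.000507 without replicate 2 to 0.21 without replicate 1, so 1 library decides it. All 6 genes were detected at limits of 0.5, 1 and 10 CPM. None of the 6 reached the fold between libraries under any of the 9 alternatives, while the share of all genes past it ran from 4.30% (18 of 419 with CPM + 5, against 58 with none) to 30.2% (177 of 587 with every gene counted in both libraries). It was 28.9% (121 genes) at the lowest fold tried, 5.49% (23) at 2-fold and 5.35% (16 of 299) at 10 CPM or more. Scaling by TMM or DESeq2 factors called 59 genes. Depth limits Mir3074-1 and the Mir24-1 strand, at 127 and 56 reads in replicate 2. Reads that fit several loci are uncounted, which touches miR-24-3p and miR-3074-5p whole and short reads of miR-23 and miR-27.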
